A study of Rattus norvegicus with 25 samples.

Results

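Glucotonic sections of the intestine of Otsuka Long-Evans Tokushima Fatty (OLETF) rats after Roux-en-Y gastric bypass (RYGB) were compared with the distal intestine of sham-operated OLETF rats, over all genes. The comparison was chosen by the sample titles. It took 8 of the 25 libraries of the series: 5 titled Glucotonic_OLE and 3 titled Sham_OLE. The glucotonic libraries carried the numbers 13, 16, 18 and 19, read as rats, and the pair of libraries of number 13 was summed, which left 4 glucotonic samples. The sham samples were numbers 4, 22 and 23. All rats of both groups were OLETF, a strain that becomes obese and diabetic, and the groups differed in the operation. The labels used here give no age, sex, diet or time after surgery, and do not define "glucotonic", which is the submitters' word for the section. Other libraries came from non-glucotonic sections of the same numbers (Nonglucotonic_OLE) and from a first cohort with the alimentary limb (RYGB_AL), the common limb (RYGB_CL), sham jejunum (Sham_JEJU) and sham ileum (Sham_IL).

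RYGB joins a small stomach pouch to the jejunum. Food then enters the alimentary limb undigested, and meets bile and pancreatic juice in the common limb. In rats the alimentary limb is known to enlarge after surgery and to take up more glucose from the blood, with more of the glucose transporter GLUT1 on its cells. Along the normal intestine, the jejunum absorbs most sugar, fat and amino acids, while the ileum takes back bile acids. The design text places the glucotonic sections at the distal intestine, and the question is what distinguishes them from the same region after sham surgery.

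The files identify genes by Ensembl ID only, and 0 of the 32883 IDs could be matched to a symbol, so the printed IDs carry no gene name or function here. At most 2 IDs that were higher and 2 that were lower are printed, and the rest of the account is by groups of IDs. Groups were formed by level, by separation of the samples, or by how the same IDs behaved in the first cohort, which shares no library with these 8.

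The 5 glucotonic libraries held 19092351 to 25639503 counts and the 3 sham libraries 18822931 to 24617911 counts. A pair of IDs, ENSRNOG00000043866 and ENSRNOG00000030478, took 45.95% to 65.9% of the counts of each glucotonic library and 48.99% to 56.7% of each sham library. In the first-cohort libraries ENSRNOG00000043866 took 0.182% to 1.47% and ENSRNOG00000030478 at most 0.106%. Both IDs were left out of all totals. The counts left for other IDs were 8749067 to 12844745 per glucotonic library and 8476063 to 12556844 per sham library. All 3 sham libraries came from sequencing lane 7, while the glucotonic libraries came from lane 4 (3 libraries), lane 6 (number 19) and lane 7 (the second library of number 13).

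In each group 1 sample stood apart from the rest. The distance between libraries was taken as the median absolute log2 difference over 11130 IDs with a mean of at least 5 CPM (counts scaled by the library total). Glucotonic libraries of numbers 13, 16 and 18 lay 0.163 to 0.233 from one another, and both libraries of number 13 lay 0.187 apart. Glucotonic 19 lay 0.338 to 0.418 from the other glucotonic libraries. It lay nearer to the sham libraries, at 0.278 to 0.324. Sham_OLE 22 and 23 lay 0.188 apart, whereas Sham_OLE 4 lay 0.332 and 0.349 from them. Glucotonic libraries other than number 19 lay 0.283 to 0.417 from sham, with the lane 7 library of number 13 nearest (0.283 to 0.314).

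**Figure D1:**
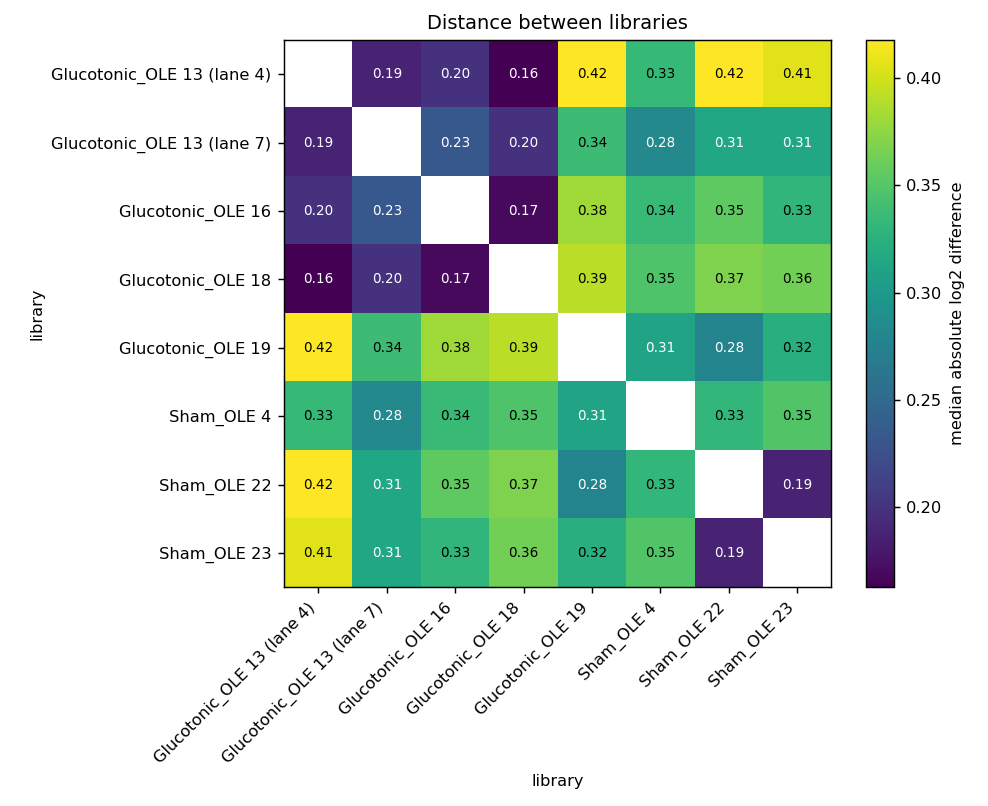
Median absolute log2 difference between each pair of the 8 libraries (rows and columns are libraries, colour and printed value the distance over 11130 IDs). The libraries of numbers 13, 16 and 18 form one block and Sham_OLE 22 and 23 another, at most 0.233 and 0.188 within; Glucotonic_OLE 19 and Sham_OLE 4 lie at 0.278 or more from every other library.

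Most IDs changed by less than 2-fold. The median log2 change (glucotonic minus sham) was -0.018 over 14444 IDs tested, with quartiles at -0.29 and 0.23. The scaling of library totals (TMM) centres the changes near 0, so the median does not measure how far the groups differ. There were 369 IDs more than 2-fold higher and 337 more than 2-fold lower. By edgeR's quasi-likelihood test with Benjamini-Hochberg adjustment, 1 ID was higher and 0 were lower at an adjusted p under 0.05 (0.00692% of those tested). At an unadjusted p under 0.05 there were 1144 higher IDs (7.92%) and 1245 lower IDs (8.62%), 16.5% in all. The next IDs after the called one had an adjusted p of 0.0523, and 54 higher and 29 lower IDs had one under 0.1 (0.374% and 0.201%, 0.575% in all). DESeq2 called 304 higher and 203 lower IDs in the same samples (2.1% and 1.41%, 3.51% in all).

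All 4 glucotonic samples lay above all 3 sham samples for 880 IDs (6.09% of those tested), and all 4 lay below for 927 (6.42%). Of the 880, 147 were more than 2-fold and 29 more than 4-fold higher, with a median log2 change of 0.52. Of the 927, 122 were more than 2-fold and 13 more than 4-fold lower, with a median of -0.59. The sample at the edge of the gap was most often one of those that stood apart. Glucotonic 19 was the glucotonic sample nearest to sham for 384 of the 880 and 419 of the 927. Sham_OLE 4 was the sham sample nearest to the glucotonic ones for 336 and 496. Glucotonic 18 was at that edge least often, for 91 and 105.

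**Figure D2:**
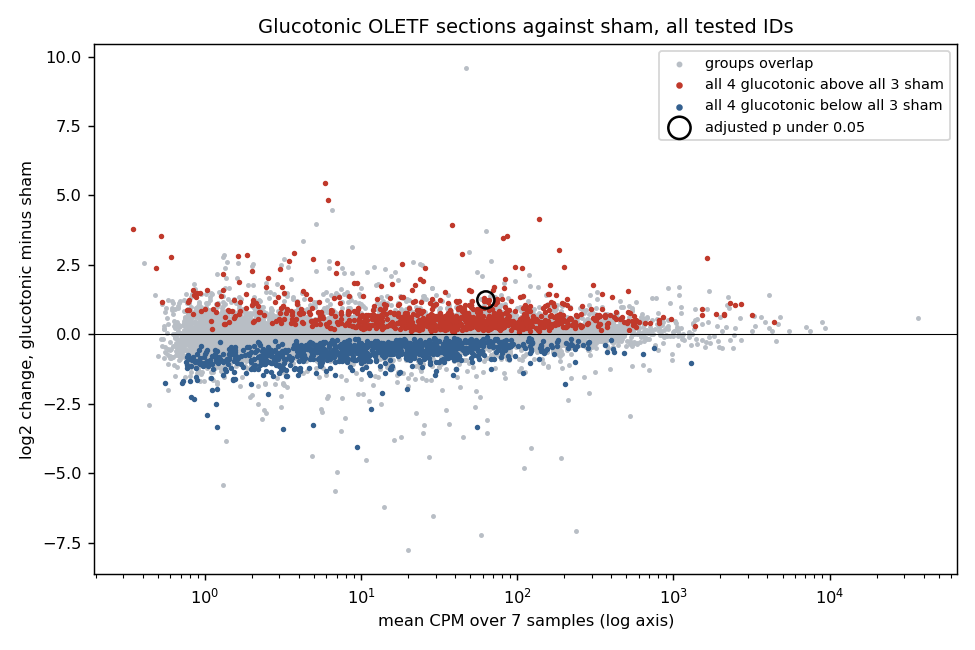
Log2 change between glucotonic and sham samples against the mean CPM over the 7 samples (log axis), 1 point per tested ID. Red and blue points are the 880 and 927 IDs whose groups do not overlap, grey points the rest, and the ring marks the 1 ID past an adjusted p of 0.05; blue points gather at low and red points at high levels.

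The called ID was ENSRNOG00000019982. It stood at 77.0 CPM in glucotonic 13, 78.6 in 16, 90.6 in 18 and 88.4 in 19, and at 32.5, 34.9 and 38.9 CPM in Sham_OLE 4, 22 and 23. Every glucotonic sample, number 19 included, thus lay at about the same level, well clear of the sham samples. The means were 83.7 ± 6.85 CPM (SD, n = 4) and 35.4 ± 3.27 CPM (SD, n = 3), a log2 change of 1.24 with a standard error of 0.14 (2.36-fold, adjusted p = 0.0235, edgeR). Within lane 7 the glucotonic library of number 13 held 72.8 CPM against 32.1 to 38.2 CPM in the sham libraries. The lane 4 library of that number held 83.5 CPM.

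This ID kept its size better than its side of the threshold. Over 23 alternatives its log2 change ran from 0.98 to 1.32, and 15 of them gave an adjusted p under 0.05. Those 23 include a fit within lane 7 that holds 1 glucotonic library. Leaving out glucotonic 13, 16, 18 or 19, or Sham_OLE 22 or 23, moved the adjusted p (edgeR) to between 0.0502 and 0.12, and without Sham_OLE 4 it was 0.0245. Entering both libraries of number 13 as separate samples gave a log2 change of 1.24 (adjusted p = 0.00877, edgeR), and 1.03 once that fit also had a term for lane 7 (adjusted p = 0.329). Both of these fits treat the libraries of number 13 as independent, so their adjusted p may be too low.

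In the other sections of the series the same ID was less distinct. Non-glucotonic sections held 56.1 to 77.0 CPM, between the other groups except that the highest equalled the lowest glucotonic sample to 3 digits. Against sham they gave a log2 change of 0.89 (standard error 0.14, adjusted p = 0.284, edgeR), from the same sham samples. Set directly against non-glucotonic sections, the glucotonic ones were 0.35 higher on the log2 scale (standard error 0.12, adjusted p = 1.00, edgeR), and 0.36 higher with the rat number as a block (standard error 0.10, adjusted p = 0.187). In the first cohort the 3 RYGB_CL samples ranged from 41.4 to 141 CPM and the 3 Sham_IL samples from 54.9 to 85.2, so those groups overlapped. Sham jejunum (28.5 to 43.9 CPM) and the alimentary limb (41.6 to 45.6 CPM) lay below every Sham_IL sample. The lowest RYGB_CL sample lay inside the range of sham jejunum and just below the alimentary limb. From Sham_JEJU to Sham_IL the log2 change was 1.02 (standard error 0.36, adjusted p = 0.0935, edgeR), on the same side as glucotonic against sham. The Sham_OLE samples (32.5 to 38.9 CPM) lay inside the range of Sham_JEJU, though CPM were scaled within each cohort. The part of the position along the intestine was not tested.

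ENSRNOG00000060184 had the largest log2 change among IDs that met the criteria for printing, and did not pass the adjusted threshold. It was at 17.6 CPM in glucotonic 13, 7.87 in 16, 13.4 in 18 and 1.65 in 19, against 0.0866, 0.205 and 0.405 CPM in Sham_OLE 4, 22 and 23. Those sham values rest on 7 counts together, against 627 in the glucotonic samples. The ratio of summed counts was 54.5, with a 95% interval of 26.3 to 136 that covers counting error only. The fitted log2 change was 5.44 (standard error 1.08, adjusted p = 0.0882, edgeR), and it passed in 6 of 23 alternatives, among them DESeq2 and the fit without number 19 (adjusted p = 0.00124, edgeR).

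Its level went with the number of the rat more than with the kind of section. Non-glucotonic sections of numbers 13, 16 and 18 held 16.4, 14.4 and 9.68 CPM, and that of number 19 held 1.91. The direct difference between glucotonic and non-glucotonic sections was -0.05 on the log2 scale (standard error 0.66, adjusted p = 1.00, edgeR). In the first cohort, sham and bypass samples alike were split by number. The 4 libraries labelled 15-29 or 15-30 held 7.86 to 12.9 CPM, and the other 8 held 0.733 CPM or less, with 0 counts in both libraries of number 8-15. Within that cohort the ID did not separate surgery from sham, with a log2 change of -0.10 for the common limb (standard error 2.12, adjusted p = 0.992, edgeR). The first cohort thus held levels as far apart within a group as between the OLETF groups. Differences between rats cannot be told apart from the operation for this ID.

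Both printed IDs on the lower side owed much of their size to Sham_OLE 4. ENSRNOG00000006306 stood at 1.81, 0.216, 0.62 and 2.09 CPM in glucotonic 13, 16, 18 and 19. Sham_OLE 4 held 50.5 CPM, and Sham_OLE 22 and 23 held 8.003 and 2.93. The groups did not overlap, but the lowest sham sample was close to the highest glucotonic one. The log2 change was -4.05 (standard error 0.95, adjusted p = 0.115, edgeR), and -2.14 without Sham_OLE 4 (standard error 0.74, adjusted p = 0.148). This ID passed the adjusted threshold in 5 of 23 alternatives, among them DESeq2 (adjusted p = 0.00532).

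ENSRNOG00000000981 was nearly constant in the glucotonic sections, at 11.4, 12.1, 11.1 and 10.4 CPM in numbers 13, 16, 18 and 19. Sham_OLE 22 and 23 held 20.2 and 18.4 CPM and Sham_OLE 4 held 303. The log2 change of -3.34 (standard error 0.84, adjusted p = 0.129, edgeR) became -0.78 without Sham_OLE 4 (standard error 0.30, adjusted p = 0.18). This ID passed in 2 of 23 alternatives, both without number 19 and added after seeing the data. DESeq2 gave it no adjusted p.

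Both of these IDs marked the jejunum in the first cohort. From Sham_JEJU to Sham_IL, ENSRNOG00000006306 had a log2 change of -4.88 (standard error 1.29, adjusted p = 0.0401, edgeR). For ENSRNOG00000000981 that change was -4.64 (standard error 0.65, adjusted p = 0.00493, edgeR), from 283 ± 39.3 CPM in Sham_JEJU to 11.4 ± 1.57 CPM in Sham_IL (SD, n = 3 each). For ENSRNOG00000000981, Sham_OLE 4 (303 CPM) lay inside the range of Sham_JEJU (241 to 318 CPM) and the glucotonic samples inside that of Sham_IL (10.2 to 13.2 CPM). For ENSRNOG00000006306, Sham_OLE 4 (50.5 CPM) lay above all 3 Sham_JEJU samples (24.6 to 39.4 CPM), and Sham_IL held 0.0344 to 1.72 CPM. Both IDs were picked for the size of a change that Sham_OLE 4 carries, so their likeness to jejunum is a description. CPM were scaled within each cohort, and the cohorts differ widely in the share of the left-out IDs. Levels are therefore not like for like across cohorts. In the common limb against Sham_IL neither passed the threshold, with log2 changes of 2.504 for ENSRNOG00000006306 (standard error 1.21, adjusted p = 0.648, edgeR) and 2.14 for ENSRNOG00000000981 (standard error 0.58, adjusted p = 0.46). ENSRNOG00000000981 ranged from 13.5 to 93.0 CPM in RYGB_CL and from 10.2 to 13.2 CPM in Sham_IL. The difference of the surgery effects between cohorts was -5.49 on the log2 scale for this ID (standard error 1.15, adjusted p = 0.15, edgeR), and -6.54 for ENSRNOG00000006306 (standard error 1.71, adjusted p = 0.211, edgeR). Both differences contain the change for which these IDs were picked and which Sham_OLE 4 carries, so they are a description too.

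**Figure D3:**
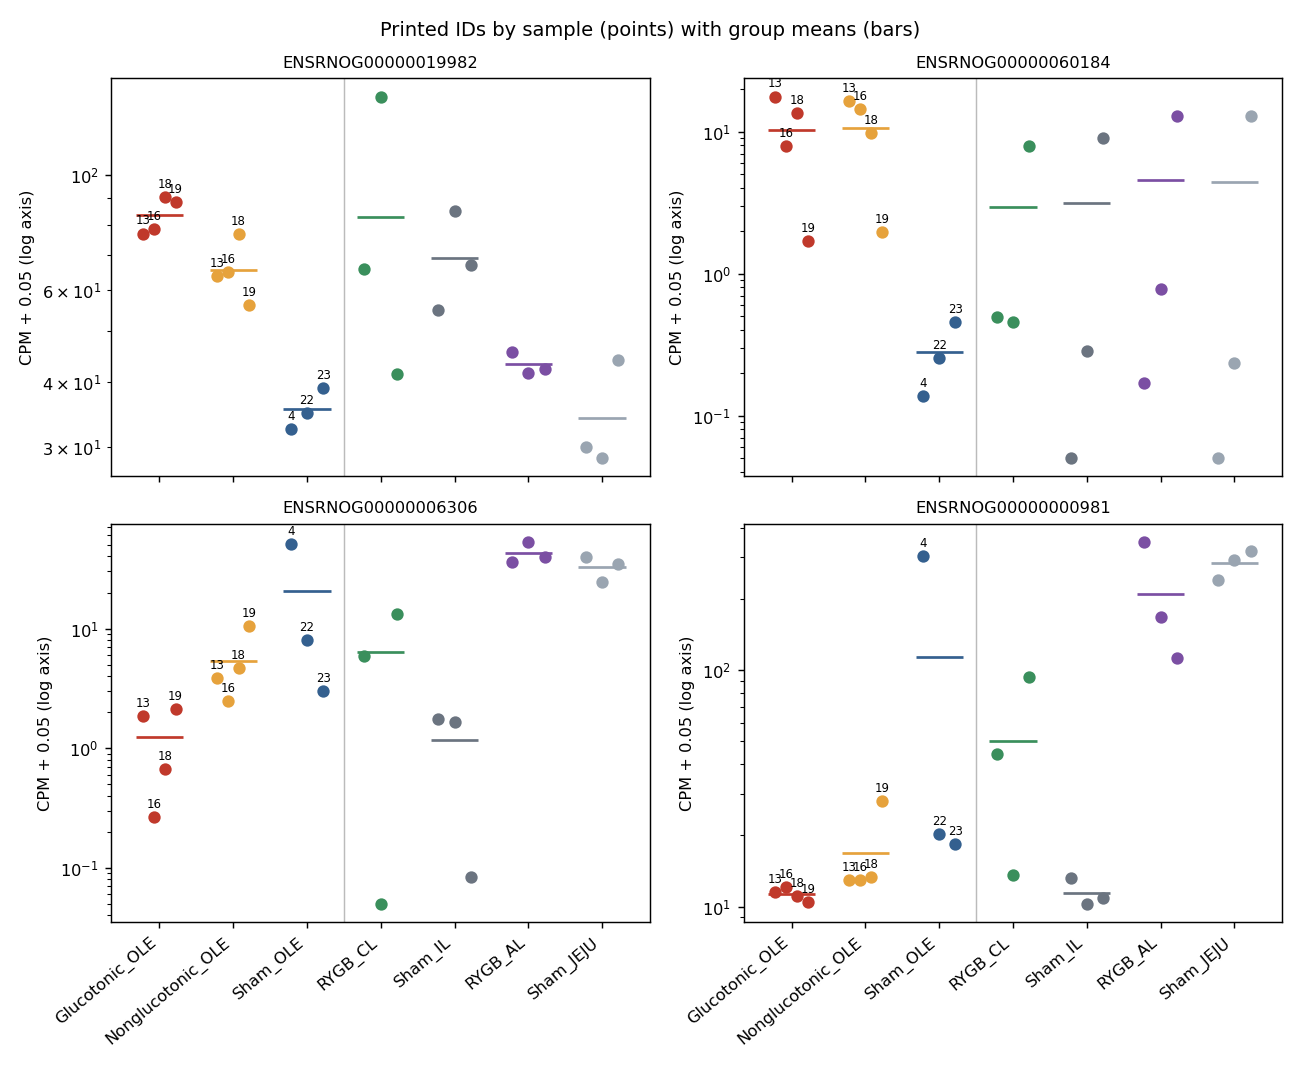
CPM plus 0.05 on a log axis for the 4 printed IDs, 1 point per sample (rat numbers beside OLETF points), bars at group means; OLETF groups are left and first-cohort groups right of the grey line. ENSRNOG00000019982 separates glucotonic from sham samples evenly, ENSRNOG00000060184 is low in both sections of number 19, and both lower IDs are highest among OLETF samples in Sham_OLE 4.

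The direction of change went with the level of the ID. Of 2122 IDs with a mean over 100 CPM, 65.2% were higher in glucotonic sections, with a median log2 change of 0.11, and 307 were higher against 84 lower at an unadjusted p under 0.05. Of 4418 IDs between 1 and 10 CPM, 38.1% were higher (median -0.14), and 152 were higher against 473 lower. The 7364 IDs between 10 and 100 CPM were balanced, with 667 higher and 645 lower and a median near 0 (-0.0027).

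This lean of abundant IDs stayed with DESeq2's size factors, with 66.7% of IDs over 100 CPM higher. Without Sham_OLE 4 that share was 74.5%, and without number 19 it was 63.6%. It was unequal among libraries. Relative to the mean of the sham libraries, the median log2 value of IDs over 100 CPM was 0.18 to 0.20 in the 3 glucotonic libraries of lane 4, 0.07 in the lane 7 library of number 13 and 0.04 in number 19. Sham_OLE 4 lay at 0.13, and Sham_OLE 22 and 23 at -0.05 and -0.07. Sham_OLE 4 and the lane 7 library of number 13 had the most counts left in their groups, and Sham_OLE 4 lay above glucotonic 19 and that library. The part of depth, lane or RNA quality in this lean was not tested.

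The number of called IDs rested on number 19 and on Sham_OLE 4. The median SD of log2 CPM over tested IDs was 0.28 among the 4 glucotonic samples and 0.171 without number 19. Among the sham samples it was 0.277, and 0.152 without Sham_OLE 4. With both sections of number 19 left out, edgeR called 946 higher and 907 lower IDs (6.6% and 6.33%, 12.9% of those tested). Without Sham_OLE 4 it called 43 higher and 55 lower IDs (0.292% and 0.373%, 0.665% in all). With number 19 and Sham_OLE 4 both left out, a choice made after seeing the data, it called 2043 higher and 1997 lower (14% and 13.7%, 27.7% in all). Leaving out Sham_OLE 22 gave 2 calls. Leaving out Sham_OLE 23, or the glucotonic section alone of number 13, 16, 18 or 19, gave 0, with 1580 to 3618 IDs at an unadjusted p under 0.05 (edgeR; DESeq2 was not run on these). limma-voom with sample weights, which counts deviating samples less, gave number 19 a weight of 0.264 in the glucotonic and 0.317 in the non-glucotonic section and Sham_OLE 4 one of 0.257, against 1.13 to 2.21 for the rest. It called 1707 higher and 1890 lower IDs (11.8% and 13.1%, 24.9% in all). With the number as a random block, limma-voom called 5 higher and 1 lower (0.0346% and 0.00692%, 0.0415% in all).

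Glucotonic 19 itself was examined in the IDs called with both sections of number 19 left out. For the 946 higher IDs the median log2 difference from mean sham was 0.70, 0.76 and 0.83 in glucotonic 13, 16 and 18, and 0.09 in glucotonic 19. Number 19 lay above mean sham for 561 of them (59.3%), against 48.7% of all tested IDs, and above every sham sample for 368. For the 907 lower IDs the medians were -0.74, -0.74 and -0.85, and -0.12 in number 19, which lay below mean sham for 572 (63.1%). These IDs were called from numbers 13, 16 and 18 with the same sham samples, so these shares are a description.

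**Figure D4:**
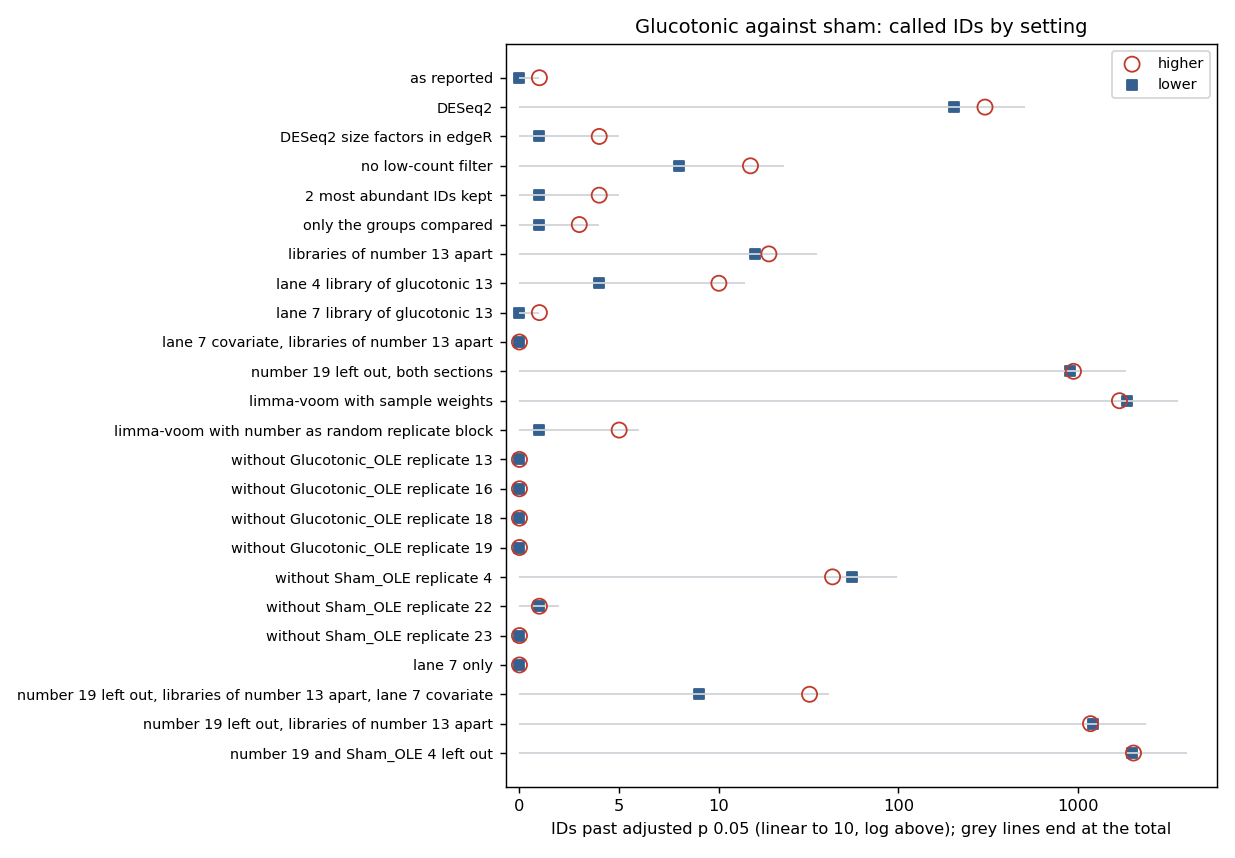
IDs past an adjusted p of 0.05 in glucotonic against sham under each alternative (red circles higher, blue squares lower, grey lines to the total; axis linear to 10 and logarithmic above). Counts run from 0 to 4040, and the 4 highest counts, 1853 to 4040, come from settings that leave out both sections of number 19 or give them less weight.

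The lane could be separated from the group only through number 13. With its libraries kept apart, edgeR called 35 IDs, and 0 with lane 7 as a covariate (1340 at an unadjusted p under 0.05; DESeq2 was not run with this term). Without number 19 those counts were 2394 and 41. All of these fits treat the libraries of number 13 as independent samples, so their counts may be too high. Within lane 7 there was 1 glucotonic and 1 non-glucotonic library, so the spread came from the 3 sham libraries alone and the lone glucotonic library was assumed to vary like them. That fit called 0 IDs (761 at an unadjusted p under 0.05, edgeR), and with so few samples it says nothing about the part of the lane. Using only the lane 4 library of number 13 gave 14 calls and only the lane 7 library gave 1. For the other glucotonic numbers, lane and group cannot be told apart.

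IDs that had risen in the alimentary limb were mostly higher in glucotonic sections. In the first cohort 719 IDs rose in RYGB_AL against Sham_JEJU (edgeR, adjusted p under 0.05, 4.46% of those tested there; 3.21% fell, 7.67% in all), and 650 of them were tested here. Of these, 452 (69.5%) were higher in glucotonic sections, with a median log2 change of 0.21, against 48.0% and -0.018 over all tested IDs. At an unadjusted p under 0.05, 140 (21.5%) were higher and 23 (3.54%) lower, against 7.92% and 8.62% of all tested. The samples did not overlap for 116 higher (17.8%) and 19 lower IDs (2.92%), against 6.09% and 6.42%. With all samples, 0 of them passed the adjusted threshold (edgeR). Without number 19, edgeR called 100 of them higher (15.5% of the 647 tested in that fit) and 14 lower (2.16%), against 6.6% and 6.33% of all tested. Without number 19 and Sham_OLE 4 it called 122 of the 650 higher (18.8%) and 58 lower (8.92%), against 14.1% and 13.6% of the 14444 IDs, so the shares lay nearer to the background in that fit.

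The mean log2 level of these 650 IDs relative to mean sham was 0.22, 0.36, 0.38 and 0.19 in glucotonic 13, 16, 18 and 19, and -0.10, -0.03 and 0.13 in Sham_OLE 4, 22 and 23. The glucotonic samples, number 19 included, all lay above the sham samples. The libraries of number 13 lay at 0.25 (lane 4) and 0.22 (lane 7). Non-glucotonic sections lay at 0.18, 0.10, -0.02 and -0.05 in numbers 13, 16, 18 and 19, each below the glucotonic section of its number. The pair of non-glucotonic libraries of number 13, which are different sections by their titles, were at 0.34 and -0.03. Of the 650, 599 were not called between the sham segments in the first cohort, and their median was 0.20. Without Sham_OLE 4 the median of the 650 was 0.19, with 67.2% higher.

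IDs that had fallen in the alimentary limb gave a less even picture. Of 500 tested, 39.8% were higher and the median log2 change was -0.12. At an unadjusted p under 0.05, 14 (2.8%) were higher and 68 (13.6%) lower, against 7.92% and 8.62% of all tested. Without number 19 the median was -0.06, and edgeR called 26 higher (5.21%) and 35 lower (7.01%), near the 6.6% and 6.33% of all tested. Their mean level was 0.03, -0.04, -0.13 and -0.40 in glucotonic 13, 16, 18 and 19, against 0.18, -0.11 and -0.07 in Sham_OLE 4, 22 and 23, so the groups overlapped. Without Sham_OLE 4 the median was 0.02 and 51.4% were higher. Without number 19 and Sham_OLE 4, edgeR called 85 of the 500 higher (17%) and 61 lower (12.2%), against 14.1% and 13.6% of the 14444 IDs. In that fit the risen and the fallen IDs thus both had more higher than lower calls. Neither group was matched for level to all tested IDs.

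IDs that tell ileum from jejunum showed where along the intestine the samples resembled the first cohort's sham segments. Of 385 tested IDs that were higher in Sham_IL than in Sham_JEJU (edgeR called 2.75% higher and 6.48% lower there, 9.23% in all), the mean level relative to mean sham was 0.04 to 0.39 in the glucotonic samples. It was -0.63 in Sham_OLE 4, 0.15 in Sham_OLE 22 and 0.48 in Sham_OLE 23. For the 1014 jejunum-high IDs the glucotonic samples lay between -0.19 and -0.03, Sham_OLE 4 at 0.64, and Sham_OLE 22 and 23 at -0.20 and -0.44. The glucotonic samples thus lay inside the range of the sham samples in both groups, and Sham_OLE 4, labelled distal intestine, lay toward the jejunum side. Jejunum-high IDs had a median log2 change of -0.06 with all samples and 0.26 without Sham_OLE 4, when 77.4% of them were higher. Ileum-high IDs went from 0.08 to -0.10. In bulk tissue, fewer cells of a type and less RNA per cell cannot be told apart.

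IDs that leaned to one side in the common limb of the first cohort were taken at an unadjusted p under 0.01 (edgeR, RYGB_CL against Sham_IL), which held for 1.17% of IDs on the higher and 0.794% on the lower side, 1.97% in all. Of 178 of the higher ones tested here, 46.6% were higher in glucotonic sections (median log2 change -0.05). Of 119 of the lower ones, 58.8% were higher here (median 0.05). Without number 19 these medians were -0.17 and 0.16, each on the side opposite to the common limb, so their size depends on that number. The calls of that fit did not follow the median for the higher ones, with 12 of 173 called higher (6.94%) and 3 lower (1.73%). For the lower ones, 10 of 119 were called higher (8.4%) and 6 lower (5.04%). Over all tested IDs these shares were 6.6% and 6.33% (edgeR). In Sham_OLE 4 the mean level relative to mean sham was 0.66 for the higher ones and -0.47 for the lower ones. That is the side on which the common limb lay. Sham_OLE 22 and 23 lay on the opposite side, at -0.19 and -0.46 for the higher ones and 0.17 and 0.30 for the lower ones. The medians above thus depend on Sham_OLE 4 as well, and they were not taken without it. In the glucotonic samples the mean level ran from -0.20 to 0.07 and from -0.38 to 0.29, inside the range of the sham samples in both cases.

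**Figure D5:**
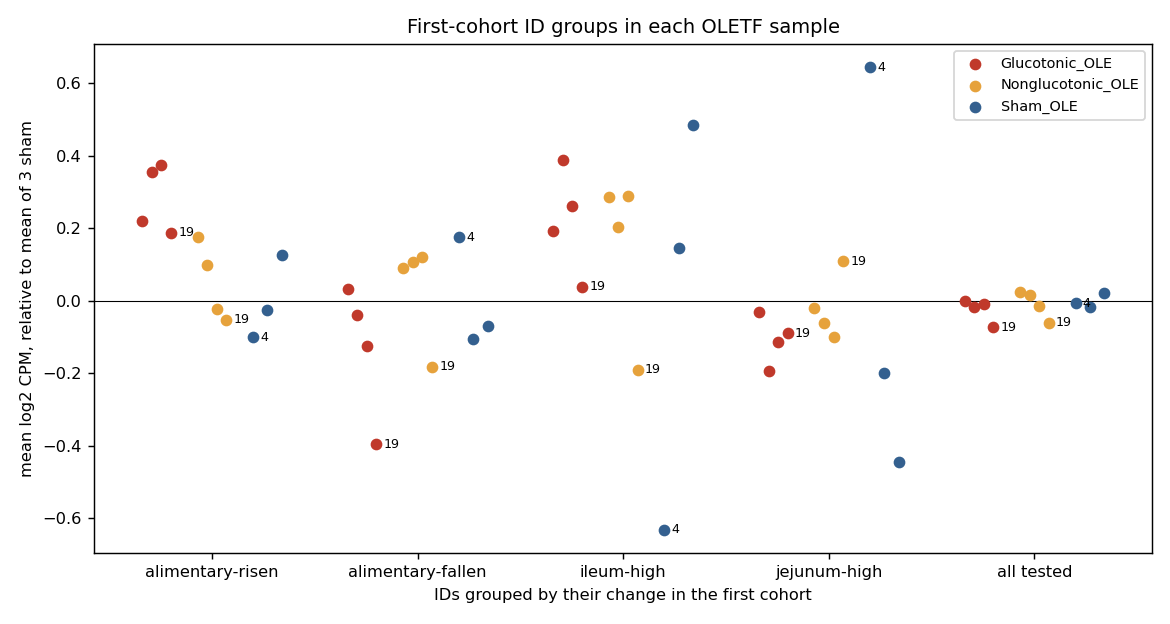
Mean log2 CPM relative to the mean of the 3 sham samples (vertical axis) for IDs grouped by their behaviour in the first cohort (horizontal axis), 1 point per OLETF sample, with numbers 19 and 4 marked. The glucotonic points lie above the sham points for alimentary-risen IDs, at 0.19 or more against at most 0.13, and inside the sham range for ileum-high and jejunum-high IDs.

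Both of the following tests asked whether the effect was particular to these sections. Against non-glucotonic sections, edgeR called 0 of 14444 IDs (372 at an unadjusted p under 0.05), DESeq2 called 3, and edgeR with the rat number as a block called 7 higher and 12 lower of 13884 (0.0504% and 0.0864%, 0.137% in all). The second test set the effect of surgery here against that in the common limb of the first cohort. The libraries of the cohorts differ in make-up, as given above, and the part of this in the second test was not tested. Over 16561 IDs edgeR called 0 (lowest adjusted p 0.0938, 1805 or 10.9% at an unadjusted p under 0.05, of which 5.22% higher and 5.68% lower) and DESeq2 called 126. Leaving out single samples gave 14 calls without Sham_OLE 23, 1 without Sham_OLE 4 and 0 in the other cases, and leaving out both sections of number 19 gave 89.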

How the data were processed

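Libraries were made with a stranded, rRNA-depleted total RNA kit, per the labels' protocols. FastQC, STAR and build rn6 appear in the submitters' notes. How reads were counted (tool, annotation, strand, multi-mapping) was not stated, so IDs with near copies or overlapping genes are uncertain. The authors deposited raw whole-number counts for 32883 Ensembl IDs in 25 libraries. Because 0 IDs matched the reference gene table, 43 gene and marker lists, the check of tissue markers and all sequences were unused. The cell line pair named in the design is not analysed here.

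Members, lists, rules and alternatives were chosen with earlier results of these data known. Libraries of number 13 differed beyond counting noise (chi-square per degree of freedom 25.6) and were summed. edgeR 4.0.16 (R 4.3.3) was fitted to the 3 OLETF groups together (filterByExpr, minimum 10 counts and 15 in total; TMM; robust quasi-likelihood; Benjamini-Hochberg, adjusted p under 0.05). CPM are TMM-scaled, log2 CPM use a prior count of 2, and a standard error is the log2 change over the root of F. The first cohort was fitted on its own, the difference between cohorts on all samples. DESeq2 1.42.0 and limma 3.58.1 served as alternatives. The code was tested on simulated data.

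The planned rule named genes with a symbol, which could not be applied. Printed instead were called IDs, then the largest log2 changes among IDs with unadjusted p under 0.01, at least 5 CPM on average and no overlap (328 higher and 251 lower qualified), at most 2 each way. Glucotonic and non-glucotonic sections of one number deviated together (r = 0.468, 0.433, 0.342 and 0.813 for 13, 16, 18 and 19), though 18 correlated more with another number (0.45). The number served as a pairing in alternatives only. The main fits treated both sections of a number as independent samples. No label says that samples came from separate animals, so p-values may measure technical spread only.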

Additional observations from a re-analysis of the deposited data

Results flagged for a closer look

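Among 19 groups of values examined, 2 held a sample far from the rest of its group, both of number 19. Chance flags about 1 in 20 independent groups, and these groups reuse the same samples. ENSRNOG00000000981 was at 28.0 CPM in the non-glucotonic section of number 19, with 13.3 CPM as the next value in its group. ENSRNOG00000030478 took 13.3% of the counts of Glucotonic_OLE 19, with 5.94% as the next value.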

How the results depend on the processing

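For glucotonic against sham, the count of 1 became 507 with DESeq2, 5 with its size factors in edgeR, 23 without a low-count filter, 5 with the 2 most abundant IDs kept and 4 with only the groups compared. It was 35 with the libraries of number 13 apart, 0 with lane 7 as a covariate added to that fit, and 14 with only the lane 4 library of glucotonic 13. It was 1853 without both sections of number 19 and 3597 with sample weights (limma-voom). Leaving out 1 sample gave 0 to 98. Alternatives added after seeing the data gave 0 in lane 7 only (1 glucotonic library), 2394 without number 19 and with the libraries of number 13 apart, 41 with lane 7 added to that fit, and 4040 without number 19 and Sham_OLE 4. The causes were not tested. Fits with the libraries of number 13 apart treat them as independent samples.

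A fixed block could not be fitted here, because sham and glucotonic samples share no number. With the number as a random replicate block over the OLETF samples (limma-voom, correlation 0.625), 6 IDs were called, 5 of them higher. For glucotonic against non-glucotonic sections the count of 0 became 3 with DESeq2 and 19 with the number as a replicate block, and stayed at 0 in the other alternatives run. The count of 0 for the difference between cohorts became 126 with DESeq2, 89 without number 19, and 0 to 14 with 1 sample left out. The 4 printed IDs kept their direction in all 23 alternatives. Low IDs were measured least precisely: the median SD of log2 CPM among glucotonic samples was 0.558 under 1 CPM and 0.232 over 100 CPM.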

Other observations

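IDs with an adjusted p under 0.1 were mostly on the higher side with all samples (edgeR). That lean did not hold elsewhere. At an unadjusted p under 0.05 there were 1144 higher and 1245 lower IDs, and without Sham_OLE 4 edgeR called 43 higher and 55 lower. The 54 higher IDs with an adjusted p under 0.1 (edgeR), the called ID among them, had log2 changes of 0.56 to 5.44 with a median of 1.10. The 29 lower ones had changes of -2.70 to -0.59 with a median of -0.96.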
